A study of Mus musculus with 3 samples.

Results

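Feedback inhibitors of ERK signalling, together with ETS transcription factors that the same pathway induces, were examined in 3 mouse pluripotent cell cultures measured on 1 Illumina bead array each. The set was chosen by gene symbol and held 10 genes: the phosphatase genes Dusp4 and Dusp6, the Sprouty genes Spry1, Spry2 and Spry4, the Spred genes Spred1 and Spred2, the ETS factor genes Etv4 and Etv5, and Phlda1. The platform's probe-to-gene table paired 17 of 25697 probes with these symbols, and every one of them is reported. They stand for 10 of the 16593 genes named on the array. Of the 10 genes, 8 were detected on at least 1 array, against 8224 of all 16593 genes. Detection here means a p-value against negative controls under 0.01.

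The cultures were E3R, E3 and CGR8. E3R cells were epiblast stem cells of the E3 line, of hybrid genetic background, after reversion to an ES-like state. They grew on gelatin with PD0325901, a MEK inhibitor, at 1 µM, CHIR99021, which inhibits GSK3, at 3 µM, and the cytokine LIF at 1000 U. E3 cells, the same epiblast stem cell line before reversion, grew on inactivated CF1 mouse embryonic fibroblasts with 5 ng/ml of FGF2 and were lifted off with collagenase IV. CGR8 is an embryonic stem cell line kept in the same substrate and additives as E3R, and both were harvested on the dish. All 3 cultures shared a KSR-based medium and are given as untreated. The labels do not say whether E3R is 1 clone. E3 medium is not labelled with PD0325901, CHIR99021 or LIF. These additives, FGF2, feeders and harvest changed together between E3R and E3, and between E3 and CGR8, so their parts cannot be told apart. There was 1 array per culture, so the differences are sizes that no replicate tests.

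Fibroblast growth factors act through receptor tyrosine kinases, Ras, Raf, MEK and ERK. Active ERK induces ETS factors of the Etv4 and Etv5 class and also its own brakes: Dusp phosphatases remove phosphate from ERK, Sprouty proteins hold back signalling from receptor to Ras, and Spred proteins bring the Ras inactivator neurofibromin to the membrane. The repressor capicua, encoded by Cic, keeps Etv4 and Etv5 low until ERK signalling relieves it. In the mouse, FGF and ERK signalling moves embryonic stem cells towards differentiation and, with Activin, sustains epiblast stem cells, whereas a MEK inhibitor is part of the medium that holds embryonic stem cells in the naive state.

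The arrays detected 9994 probes for E3R, 10791 for E3 and 9860 for CGR8. Markers followed the labels: of 10 naive pluripotency genes listed, 9 were on the array and 8 were detected in E3R, 5 in E3 and 8 in CGR8, and of 8 primed genes 4, 7 and 4 were detected in that order. Esrrb, a naive pluripotency factor gene, had log2 signals of 11.85 in E3R, 5.41 in E3 and 11.77 in CGR8, and Fgf5, a growth factor gene of the primed epiblast, had 4.23, 8.57 and 4.34. Of 16 fibroblast markers listed to show feeder RNA, 15 were on the array; 1 was detected in E3R, 4 in E3 and 1 in CGR8, and their summed raw signals were 1226, 1697 and 1307. The fibroblast markers Thy1 (raw signal 285.9), Dcn (155.4), Acta2 (216.4) and Tagln (97.0) were detected in E3, while the defining collagen genes Col1a1, Col1a2 and Col3a1 and the matrix genes Lum and Postn were detected on no array. Acta2 was also detected in E3R (120.1), and Pdgfra, another marker of the list, was detected in CGR8 alone (105.7). The 4 markers detected in E3 were brightest on the same array as most of the feedback genes, and their part in the results below was not tested.

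Raw signals are given in array units as deposited, with no background subtracted: the lowest signals were 66.5 in E3R, 70.5 in E3 and 69.8 in CGR8, and the lowest detected ones 94.2, 95.5 and 105.5. Log2 signals are background-corrected and quantile-normalized. A difference is a difference of log2 signals. The standard error (SE) beside it comes from the spread over beads within these arrays and leaves out variation between cultures. Where the dimmer array did not detect a probe, the difference is a bound and is written as "at least". The SE of a bound holds the bead error of the detecting array alone, so it leaves out that of the dimmer array.

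**Figure D1:**
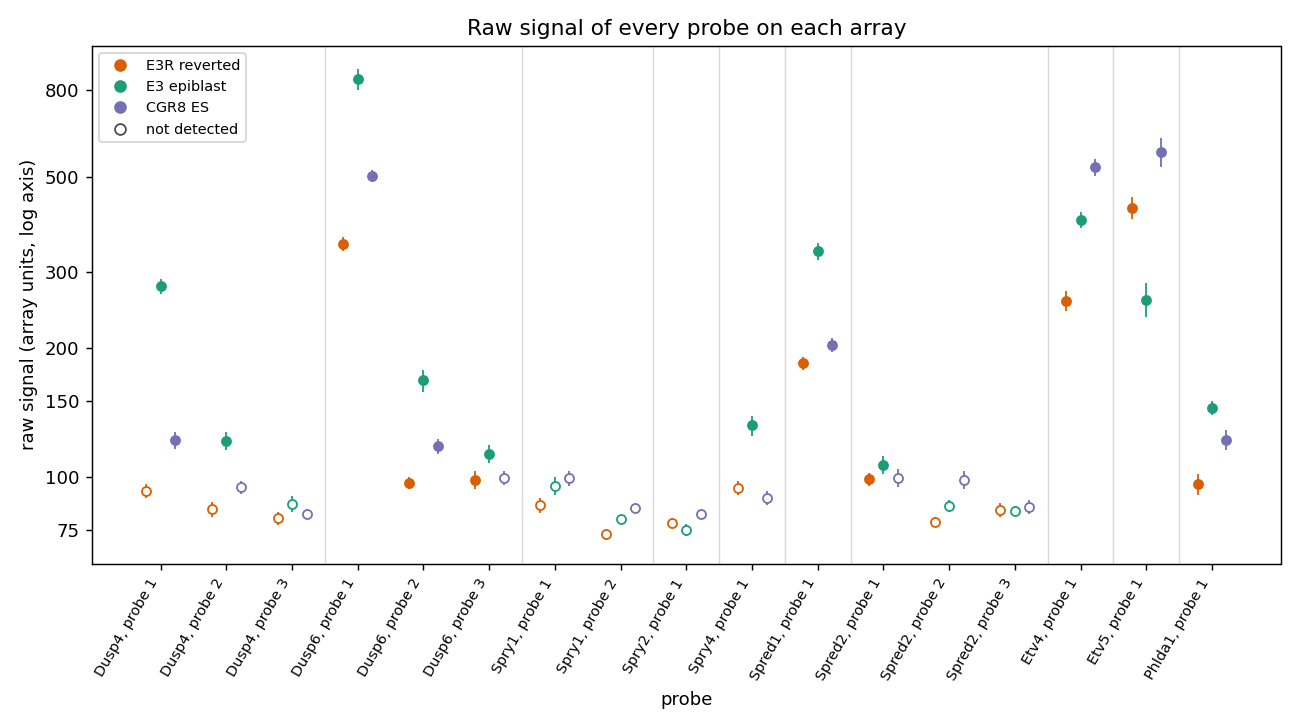
Raw signal of each of the 17 probes (vertical log axis, array units) on the E3R, E3 and CGR8 arrays; bars are the standard error over beads and open circles mark probes not detected. The first probes of Dusp4, Dusp6, Spry4, Spred1 and Phlda1 were brightest in E3, whereas Etv4 and Etv5 were brightest in CGR8.

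Both dual-specificity phosphatase genes were lower in reverted cells than in E3. Dusp4 encodes a nuclear phosphatase of ERK and related kinases. Its brightest probe, ILMN_2689731, had a raw signal of 92.9 in E3R, 278.1 in E3 and 121.8 in CGR8, with detection p-values of 0.0188 in E3R and 0 in the other 2 cultures. E3 alone was bright, CGR8 was dim and E3R was not detected. Dusp4 was at least 6.16-fold lower in E3R than in E3 (log2 difference −2.62, bead SE 0.08). In E3 it was 4.16-fold higher than in CGR8 (2.06, SE 0.17). E3R was at least 1.48-fold lower than CGR8 (−0.57, SE 0.15).

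The other Dusp4 probes were dimmer and showed less. ILMN_2870965 had raw signals of 84.0 in E3R, 121.2 in E3 and 94.5 in CGR8, and was detected in E3 alone, which put E3R at least 1.60-fold lower than E3 (−0.68, SE 0.15). ILMN_2608995 was detected on no array (80.0, 86.5 and 82.0 in E3R, E3 and CGR8). With the mean of its probes that have a value, the Dusp4 difference between E3R and E3 was −1.65. With no background subtracted it was −1.45, and that between E3 and CGR8 was 1.23.

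Dusp6 encodes a cytoplasmic phosphatase with a preference for ERK and is widely used as a readout of FGF and ERK activity. Probe ILMN_2925711 had raw signals of 349.8 in E3R, 845.7 in E3 and 503.0 in CGR8, with bead errors of 13.0, 45.6 and 15.9. It was detected on all 3 arrays, brightest in E3 and dimmest in E3R. Dusp6 was 2.37-fold lower in E3R than in E3 (−1.25, SE 0.11) and 1.23-fold lower than in CGR8 (−0.30, SE 0.08). E3 was 1.93-fold higher than CGR8 (0.95, SE 0.10), so all 3 neighbours in this order differed by more than 1.96 bead SE.

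A second Dusp6 probe, ILMN_1248537, gave the same order from much dimmer signals, 97.0 in E3R, 167.8 in E3 and 117.8 in CGR8, and put E3R 2.70-fold below E3 (−1.43, SE 0.19). The third, ILMN_2701321, was dim at 98.5 in E3R, 113.3 in E3 and 99.3 in CGR8, the last not detected, and differed by 1.19-fold between E3R and E3 (−0.25, SE 0.25). The mean of the 3 probes was −0.98, short of 2-fold. Against CGR8, E3R differed by −0.33 (SE 0.19) at ILMN_1248537. At ILMN_2701321, E3R was higher than CGR8 by at least 0.16 (SE 0.19). Both lay within 1.96 bead SE.

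Promoter windows were searched for letters that factors of this pathway are known to bind. RefSeq windows (GRCm38.p6) of 250 bases before a transcription start were used for 6 genes, Dusp6, Spry1, Spry2, Spred1, Spred2 and Etv5, the last with 2 starts, and Dusp4, Spry4, Etv4 and Phlda1 were not analysed here. The motifs, on both strands, were the ETS site CCGGAAG, the AP-1 site TGANTCA, the CRE TGACGTCA, the capicua sites TGAATGAA and TGAATGGA, and 1 form of the serum response element. None of these was in any of the 7 windows, against 6.91% of all 32851 windows for the ETS site, 6.75% for AP-1, 1.55% for the CRE, 1.08% and 1.01% for the capicua sites and 0.0609% for the serum response element. These letters are absent from these windows only. After the windows had been seen, the 6 letters TGAATG that open both capicua sites were searched as well. They were in 2 of the 7 windows, against 10.9% of all windows. The Dusp6 window, on the + strand at chr10:99262981-99263230, held them once, from base −133 before the start, shown in capitals.
Dusp6: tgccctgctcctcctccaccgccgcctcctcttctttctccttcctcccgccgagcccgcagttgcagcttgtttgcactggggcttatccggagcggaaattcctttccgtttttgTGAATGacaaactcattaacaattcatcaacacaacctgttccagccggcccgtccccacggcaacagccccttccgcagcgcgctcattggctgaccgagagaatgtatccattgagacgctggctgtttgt

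The Sprouty genes were at or near background. Spry1 and Spry2 encode membrane-associated inhibitors of receptor tyrosine kinase signalling, and neither was detected on any array. Spry1 probe ILMN_1230525 read 85.9 in E3R, 95.2 in E3 and 99.4 in CGR8, with a lowest detection p-value of 0.01003, in E3, just outside the threshold. Spry1 probe ILMN_2735007 read 73.5, 79.7 and 84.6 in the same order. The single Spry2 probe, ILMN_2749464, read 78.0 in E3R, 75.3 in E3 and 81.8 in CGR8. No difference can be given for either gene, and a change in them was not detectable with these probes.

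Spry4, a further Sprouty gene often used as an FGF target, was detected in E3 alone. Its probe ILMN_2825817 had raw signals of 94.2 in E3R, 131.9 in E3 and 89.4 in CGR8, with a detection p-value of 0.01003 in E3R and 0.178 in CGR8. Spry4 was at least 1.91-fold lower in E3R than in E3 (−0.93, SE 0.16), and E3 was at least 1.86-fold higher than CGR8 (0.89, SE 0.16). Both bounds end below 2-fold. With the authors' processed values they were −1.45 and 1.38, and without background correction −0.38 and 0.37.

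The Spred genes differed from each other. Spred1 probe ILMN_2490252 had raw signals of 183.9 in E3R, 336.3 in E3 and 203.1 in CGR8, with bead errors of 6.48, 15.6 and 7.25. E3 stood above the other 2 cultures, which lay close together. Spred1 was 1.92-fold lower in E3R than in E3 (−0.94, SE 0.11) and E3 was 2.08-fold higher than CGR8 (1.06, SE 0.11). E3R and CGR8 differed by 1.08-fold (0.11, SE 0.11), within 1.96 bead SE.

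The Spred1 promoter window, on the + strand at chr2:117120821-117121070, is shown for comparison with that of Dusp6, as both genes were lower in E3R. It held none of the letters searched, TGAATG included, and was richer in G and C (70.8% against 56.4%).
Spred1: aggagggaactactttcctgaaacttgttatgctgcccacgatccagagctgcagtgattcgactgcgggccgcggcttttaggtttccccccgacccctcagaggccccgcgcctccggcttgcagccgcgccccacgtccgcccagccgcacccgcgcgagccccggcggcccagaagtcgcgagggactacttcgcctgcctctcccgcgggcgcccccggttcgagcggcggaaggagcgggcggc

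Spred2 was hardly above background. Its brightest probe, ILMN_2590010, read 98.7 in E3R, 106.7 in E3 and 99.6 in CGR8, the last not detected. E3R and E3 differed by 1.02-fold (−0.03, SE 0.23). E3R was at least 1.12-fold above CGR8 and E3 at least 1.15-fold above it, both within 1.96 bead SE. Probe ILMN_2598998 (78.5, 85.7 and 98.5 in E3R, E3 and CGR8) and probe ILMN_2969032 (83.6, 83.1 and 85.2) were detected on no array.

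The ETS factor genes differed from each other: in E3R, Etv4 was lower than in E3, as Dusp6 was, and Etv5 was higher. Etv4 and Etv5 encode closely related activators of one ETS subfamily, named PEA3 after its founding member. Etv4 probe ILMN_2778111 had raw signals of 257.4 in E3R, 397.5 in E3 and 527.6 in CGR8, with bead errors of 13.5, 16.3 and 23.6. CGR8 was highest and E3R lowest. Etv4 was 1.47-fold lower in E3R than in E3 (−0.55, SE 0.12) and 1.94-fold lower than in CGR8 (−0.96, SE 0.12). E3 was 1.32-fold lower than CGR8 (−0.40, SE 0.10). All 3 differences exceeded 1.96 bead SE and stayed under 2-fold.

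Etv5 was the one member higher in reverted than in unreverted cells. Its probe ILMN_2938047 had raw signals of 424.0 in E3R, 259.1 in E3 and 571.6 in CGR8, with bead errors of 25.6, 23.7 and 44.0. E3R and CGR8 were high and E3 was low. Etv5 was 2.19-fold higher in E3R than in E3 (1.13, SE 0.20; 0.91, under 2-fold, without background correction), and 2.47-fold lower in E3 than in CGR8 (−1.31, SE 0.22). E3R and CGR8 differed by 1.13-fold (−0.17, SE 0.16), within 1.96 bead SE. Etv5 has 1 probe on this array, so no second probe bears on its direction.

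Both Etv5 promoter windows, on the − strand, are shown because Etv5 was the one member higher in E3R than in E3. The window of the downstream start, at chr16:22438369-22438618, held TGAATG 3 times, in capitals. TGAATG was found from bases −242 and −198 on the gene's strand, and from base −129 on the opposite strand, printed here as CATTCA. These letters were chosen after this window had been seen, so the count is a description alone. The window of the upstream start, at chr16:22439571-22439820, held none of the letters searched. These matches describe the sequence and are not binding sites shown by any measurement here.
Etv5, downstream start: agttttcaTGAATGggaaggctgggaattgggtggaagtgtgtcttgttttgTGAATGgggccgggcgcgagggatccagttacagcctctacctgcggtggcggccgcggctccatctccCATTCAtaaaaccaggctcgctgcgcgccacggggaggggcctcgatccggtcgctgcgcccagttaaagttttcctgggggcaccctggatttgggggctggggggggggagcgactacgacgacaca
Etv5, upstream start: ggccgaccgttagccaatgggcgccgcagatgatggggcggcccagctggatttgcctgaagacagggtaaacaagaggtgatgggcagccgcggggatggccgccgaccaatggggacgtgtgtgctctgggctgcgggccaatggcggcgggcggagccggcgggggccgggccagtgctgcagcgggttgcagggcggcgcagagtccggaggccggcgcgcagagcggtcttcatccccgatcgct

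Phlda1 encodes a pleckstrin homology-like protein found among genes that respond to growth factors. Its probe ILMN_2754985 had raw signals of 96.1 in E3R, 144.9 in E3 and 122.2 in CGR8, with detection p-values of 0.00627 in E3R and 0 in both others. E3R was barely above background. Phlda1 was 2.13-fold lower in E3R than in E3 (−1.09, SE 0.25), and E3 was 1.52-fold higher than CGR8 (0.60, SE 0.20). E3R lay 1.40-fold below CGR8 (−0.48, SE 0.29), within 1.96 bead SE. The size depended on the background model: the difference between E3R and E3 was −0.48 with no background subtracted, −0.66 at an offset of 50 and −1.56 with the authors' processed values.

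**Figure D2:**
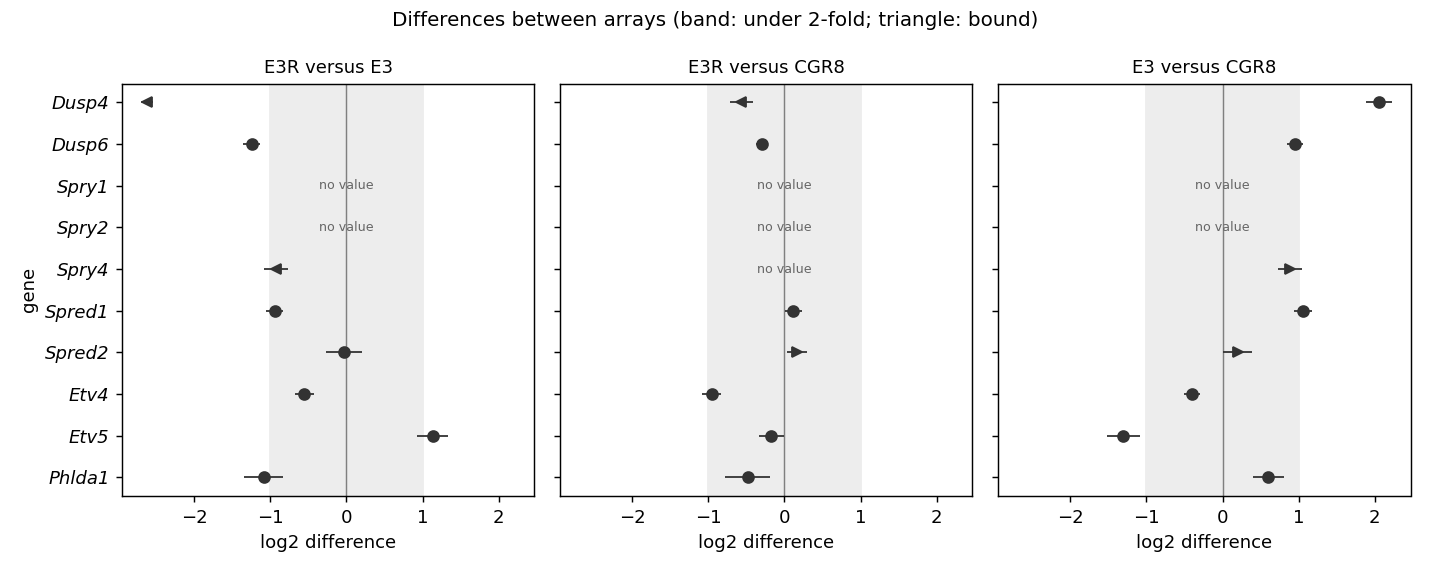
Log2 difference of each gene's brightest probe in 3 comparisons, the first culture named minus the second; bars are bead standard errors, triangles are bounds pointing away from 0, and the grey band marks under 2-fold. Dusp4 at −2.62 stands furthest out in E3R versus E3, Etv5 lies on the opposite side at 1.13, and all values and bounds of E3R versus CGR8 are plotted inside the band.

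Reverted against unreverted cells of the same line, most members measured lay below 0 and Etv5 above it. Among the 8 members that could be compared, 3 were at least 2-fold lower in E3R, namely Dusp4, Dusp6 and Phlda1, where 12.4% of all 7726 genes were. Etv5 alone was at least 2-fold higher, where 12.7% of all genes were. Spred1, Spred2 and Etv4 were within 2-fold, and the bound of Spry4 ended below it. In all, 7 of the 8 lay below 0, as did 51.3% of all genes, and their median was −0.94, beside −0.02 over all genes. Dusp4 and Spry4 were detected in E3 but not in E3R and could only count as lower. The count of lower members was 5 with the processed values of the authors. It was 2 with no background subtracted, at an offset of 50, with detection on both arrays and with the mean of probes.

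Reverted cells and embryonic stem cells, which shared substrate and additives but are different lines, were compared next. Among the 7 members that could be compared, 0 had a value or bound of 2-fold or more, where 3.35% of all 7286 genes did. Dusp4 and Spred2 are bounds here, so their size may be larger, and Dusp4 could only count as lower and Spred2 as higher. Below 0 lay 5 of the 7, as did 49.3% of all genes, and the median was −0.30, beside 0.01 over all genes. Etv4 was 1.94-fold lower in E3R, Dusp4 at least 1.48-fold and Phlda1 1.40-fold. Of all genes, 1.87% were as low as Etv4 or lower, 7.45% as low as the Dusp4 bound and 10.1% as low as Phlda1. Spred1 and Spred2 lay above 0, by 0.11 and by at least 0.17. Only Dusp4, Dusp6 and Etv4 differed by more than 1.96 bead SE, Dusp6 at its brightest probe alone.

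Unreverted epiblast stem cells against CGR8 differ in line as well as in medium. Among the 8 members that could be compared, 2 were at least 2-fold higher in E3, Dusp4 and Spred1, where 13.9% of all 7698 genes were. Etv5 was at least 2-fold lower, where 13.4% of all genes were. The median was 0.75, beside 0.01 over all genes, and 6 of the 8 lay above 0, as did 50.5% of all genes. Spry4 and Spred2 were detected in E3 but not in CGR8 and could only count as higher. With detection on both arrays, 4 of 6 members lay above 0 and the median was 0.78. Spred1 ended under 2-fold with no background subtracted (0.77) and at an offset of 50 (0.89). This comparison shares the E3 array with the first and the CGR8 array with the second, so the 3 sets of values are not independent.

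Over the 5 members detected on all 3 arrays, E3R was the lowest array for 3, Dusp6, Etv4 and Phlda1, as it was for 26.2% of all 6105 genes detected on all 3. E3 was the highest array for Dusp6, Spred1 and Phlda1, as for 42.5% of those genes. CGR8 was the highest for Etv4 and Etv5, as for 29.6%.

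**Figure D3:**
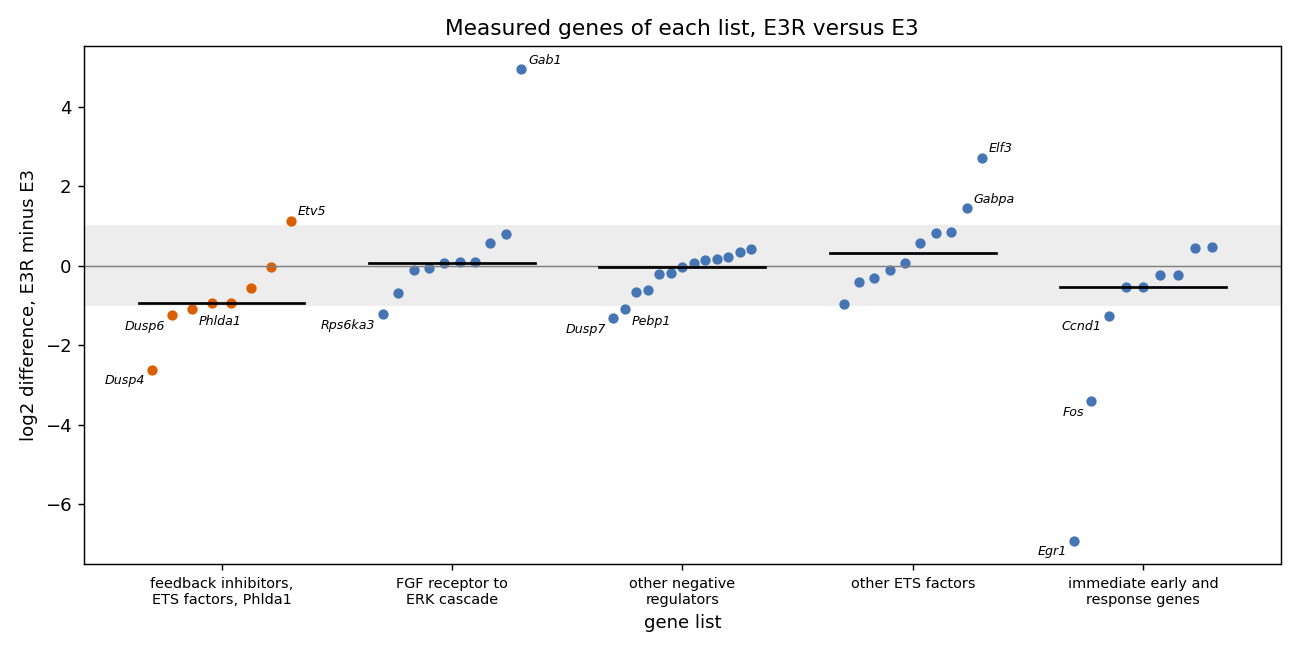
Log2 difference of E3R minus E3 (vertical axis) for each gene of 5 lists that had a value. Bounds, Dusp4 and Egr1 among them, are drawn as the same dots and enter the medians. Black lines are list medians and the grey band marks under 2-fold. The feedback inhibitors, ETS factors and Phlda1 have a median of −0.94, the immediate early list −0.54, and the cascade and other regulators medians near 0.

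Of the cascade that these genes restrain, Gab1 and Rps6ka3 were past 2-fold between E3R and E3. Of 25 genes listed from FGF receptors to ERK and its kinase targets, 16 were on the array and 10 had a value; 1 was higher by 2-fold or more and 1 lower, where 12.7% and 12.4% of all genes were, and the median was 0.07, beside −0.02 over all genes. Gab1, an adaptor that carries receptor signals to the phosphatase SHP2, had log2 signals of 11.92 in E3R, 6.98 in E3 and 11.76 in CGR8 and was 30.6-fold higher in E3R than in E3 (4.94; 4.35 with no background subtracted). Rps6ka3, which encodes a ribosomal S6 kinase activated by ERK, was 2.33-fold lower (−1.22; −0.61 with no background subtracted). The MEK genes Map2k1 and Map2k2 differed by −0.10 (SE 0.23) and 0.80 (SE 0.08). The receptor gene Fgfr1 was at least 1.62-fold lower, detected in E3 alone (−0.70; −0.27 with no background subtracted).

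Of the other negative regulators of Ras and ERK, Dusp7 and Pebp1 were past 2-fold. Of 21 listed, 19 were on the array and 13 had a value, with 0 at least 2-fold higher and 2 lower in E3R, beside 12.7% and 12.4% of all genes, and a median of −0.03. Another 2 of the 13, with bounds under 2-fold, could only count as lower. Dusp7, which encodes another cytoplasmic ERK phosphatase, was 2.50-fold lower in E3R than in E3 (−1.32, SE 0.15), with log2 signals of 5.91 in E3R, 7.23 in E3 and 6.04 in CGR8. Pebp1, which encodes the Raf kinase inhibitor protein, was 2.11-fold lower (−1.08, SE 0.13). With no background subtracted both were under 2-fold, Dusp7 at −0.78 and Pebp1 at −0.78. Errfi1, an inhibitor of the EGF receptor, was 1.58-fold lower. Cic, which encodes capicua, was 1.52-fold lower (−0.61; −0.25 with no background subtracted). The FGF pathway inhibitor gene Il17rd differed by 1.13-fold (0.17, SE 0.16).

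Of the other ETS factor genes, Elf3 and Gabpa were past 2-fold. Of 23 listed, 21 were on the array and 10 had a value, with 2 at least 2-fold higher, 0 lower and a median of 0.32. Over all genes 12.7% were higher and 12.4% lower. Elf3, an epithelial ETS factor gene, was 6.59-fold higher in E3R (2.72, SE 0.12) and Gabpa, which encodes the DNA-binding subunit of a widely expressed ETS complex, 2.72-fold higher (1.44, SE 0.19). With the mean of its probes Gabpa was at 0.63, under 2-fold, and Elf3 at 1.97. Ets2 was 1.79-fold higher, and Etv2, known from endothelial and blood development, 1.95-fold lower. Etv1, the third gene of the subfamily of Etv4 and Etv5, differed by 1.32-fold, lower in E3R (−0.40, SE 0.17), with log2 signals of 6.33 in E3R, 6.73 in E3 and 6.72 in CGR8.

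The immediate early and other ERK response genes held the largest differences downward of the 4 pathway lists. Of 16 listed, 15 were on the array and 9 had a value, with 3 at least 2-fold lower in E3R, 0 higher and a median of −0.54, beside the same shares of all genes. These were Egr1, an early transcription factor gene, at least 121-fold lower, Fos, 10.7-fold lower, and the cyclin gene Ccnd1, 2.40-fold lower, while Junb was 1.46-fold lower. Of the 9 values, 3 are bounds, Egr1 among them, from genes detected in E3 but not in E3R, which could only count as lower. With detection on both arrays, 6 genes had a value, 2 were at least 2-fold lower and the median was −0.39. With no background subtracted the bound of Egr1 was −5.37, against −6.92, and Fos at −2.45, against −3.42. Against CGR8, Egr1 was detected on neither array and Fos was 2.04-fold lower in E3R (−1.03, SE 0.14, and −0.57 with no background subtracted). Etv4 and the brightest Dusp6 probe had the same direction, whereas Ccnd1 was 3.20-fold higher in E3R than in CGR8.

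Between E3R and CGR8, where 3.35% of all genes were 2-fold apart, 0 of 10 measured cascade genes and 0 of 11 other negative regulators had a value or bound past it, 1 of 11 other ETS genes was lower, and of 6 immediate early and response genes 1 was higher and 2 were lower. The ETS gene was Spic, at least 2.33-fold lower, and the second lower response gene was Ier3, at 2.84-fold, both named after their values were seen. Between E3 and CGR8, where 13.9% of all genes were higher and 13.4% lower, 0 of 11 cascade genes were higher and 1, Gab1, was lower. Of 12 other negative regulators 2 were higher, Dusp7 and Pebp1, and 0 lower. Of 11 other ETS genes 1 was higher, Etv2, and 4 lower, Elf3, Gabpa, Ets2 and Spic. Of 9 response genes 3 were higher, Egr1, Fos and Ccnd1, and 1 lower, Ier3. With no background subtracted, Dusp7 (0.71), Pebp1 (0.90), Etv2 (0.65), Gabpa (−0.73) and Spic (−0.60) were under 2-fold in this comparison, as was Spic between E3R and CGR8 (−0.53).

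Many genes had profiles as close to those of the members as 3 arrays can show. By Euclidean distance between mean-centred log2 signals, over 6100 other genes detected on all 3 arrays, Dusp6 was nearest to Tgfbr1 (0.03) and Aacs (0.03), with 257 genes within 0.25. Spred1 was nearest to Fahd1 and Wdr55 (0.01 each), with 424 genes within that distance. Etv5 was nearest to Mlst8 (0.01) and Ppm1f (0.02), with 253 genes, and Phlda1 to Psmd11 (0.01) and H3f3a (0.02), with 219 genes. H3f3a has near-identical relatives, so its probe may read more than 1 gene.

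**Figure D4:**
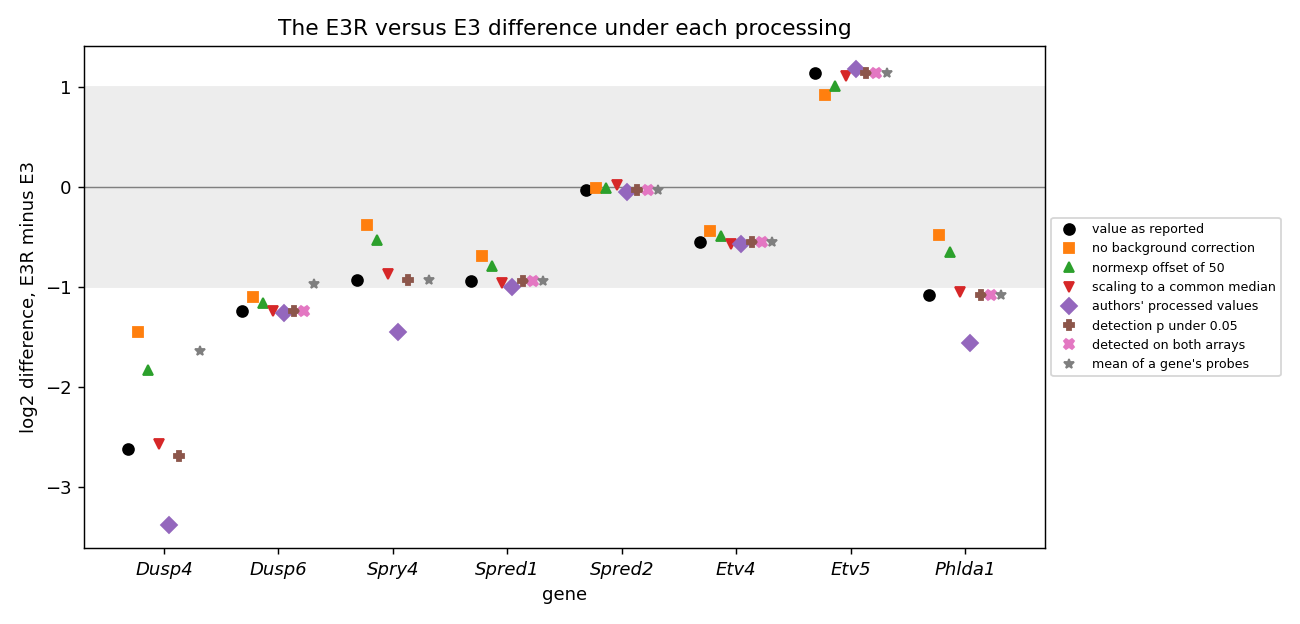
Log2 difference of E3R minus E3 (vertical axis) for the 8 genes with a value, as reported and under each other processing; the grey band marks under 2-fold. Dusp4 spans −3.39 to −1.45 and Phlda1 −1.56 to −0.48, whereas Etv4 spans only −0.57 to −0.44.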

How the data were processed

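RNA of 3 cultures was measured on 1 Illumina bead array each; per the labels' protocols, the input was 400 ng of RNA, in vitro transcription took 12 h and the dye was Cy3. The authors deposited, per array, a raw probe intensity without background subtraction, a bead standard error and a p-value of detection; the submitters' processing notes name BeadStudio. They also deposited processed intensity values, for which no normalization is stated in the labels; these served as an alternative, with missing values set to their lowest value, 8.

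The neqc function of limma 3.58.1 (R 4.3.3) normalized the raw intensities (background from detection p-values, offset 16, quantile, log2), tested on simulated data. Later steps used Python 3.11.15, pandas 2.3.3 and matplotlib 3.10.9. The probe table named 23978 probes, and symbols were updated by gene identifier. A gene with several probes takes its brightest. Bead errors were divided by the background-corrected intensity to reach the log2 scale. An undetected probe entered at the lowest detected log2 signal of its array (5.06, 4.87 and 5.10 for E3R, E3 and CGR8) or its own if higher. Every difference is a description, since 1 array per culture allows no test.

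The members, lists, motifs and tests were chosen with earlier results of these data known. Named genes are all members, the 4 largest differences of each pathway list in E3R versus E3, Il17rd, Etv1, Egr1, Fos and the MEK genes (other named kinase genes are not reported here), up to 3 markers in list order (further fibroblast markers were named after their values were seen), and the 2 nearest profiles of members detected on all arrays and 2-fold apart in a comparison. Array number limits the precision.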

Additional observations from a re-analysis of the deposited data

How the results depend on the processing

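Alternatives changed the background (none subtracted, or an offset of 50), the normalization (a common median, or the processed values of the authors), detection (a p-value under 0.05, or both arrays detected), the probe rule (mean over probes) and the threshold (3-fold). No difference of 2-fold or more among the members and the named pathway genes changed sign in any of them. In E3R versus E3 the count of higher members was 0 without background correction and 0 at 3-fold, against 1. The count of lower members was 5 with the authors' values, 1 at 3-fold and 2 with no background subtracted, the offset of 50, detection on both arrays or the mean of probes, against 3, and their median was −0.46 with no background subtracted and −0.60 at the offset of 50, against −0.94. In E3 versus CGR8 the count of higher members was 1 without background correction, with the offset of 50 and at 3-fold and 3 with the authors' values and at a detection p-value under 0.05, against 2, the count of lower members was 0 at 3-fold, against 1, and the median was 0.33 without background correction, against 0.75. Both choices of background shrink differences of dim probes by construction; the cause of the other changes was not tested. Spred2, near 0 in E3R versus E3, was 0.01 with scaling to a common median, against −0.03. Searching only the first 6 letters of the capicua sites, chosen after seeing the data, gave 2 promoter windows instead of 0. Dusp4, Spry4, Spred2 and Phlda1 lie too close to background for their sizes to be fixed, and detection on both arrays gives no value for Dusp4 and Spry4 in E3R versus E3.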
